A study of Homo sapiens with 10 samples.

Results

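Aquaporins are membrane channels, and 7 members of the family are described here among the 46427 genes of the deposited table: AQP1, AQP3, AQP4, AQP5, AQP7, AQP9 and AQP11. They were chosen by family name with their values in sphere and 2D culture already known, so every comparison of sphere with 2D culture below is a description and carries no test for them. The libraries hold poly(A) RNA of H460 and A549, established human lung cancer cell lines. H460 cells were sequenced as 3 libraries of parental cells in 2D culture, and as cells that survived cisplatin (CR, 1 library), paclitaxel (PR, 2 libraries) or doxorubicin (DR, 1 library). H460 and A549 were each also sequenced as 1 library of tumor spheroid (TS) cells, which the labels name CTC, and A549 as 1 library in 2D culture. TS cells were grown unattached in medium that held B27 and the growth factors bFGF and EGF in place of serum, and 2D cells in medium with serum, so growth form and medium cannot be told apart. The depth, as the sum of gene counts of a library, ranged from 59499787 to 89541774 (median 71656787). No label says that replicates came from separate cultures, so p-values measure the spread between these samples, which may be technical. In bulk RNA, fewer cells that express a gene and less RNA per cell cannot be told apart.

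Each aquaporin forms a narrow pore through the membrane. Classical aquaporins such as AQP1, AQP4 and AQP5 pass water down an osmotic gradient, whereas the aquaglyceroporins AQP3, AQP7 and AQP9 also pass glycerol and other small uncharged solutes. AQP3 and some other members also let hydrogen peroxide through. AQP11 is a distant relative found largely in intracellular membranes. In the lung, AQP1 is known from capillary endothelium, AQP3 from basal cells of the large airways, AQP4 from airway epithelium and AQP5 from type I alveolar cells and submucosal glands.

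The lines were checked against markers of the cells that carry these channels in lung tissue. KRT8 and KRT18, keratins of simple epithelia, were abundant, and KRT8 had an FPKM (the authors' level of fragments scaled to transcript length and library size) of 447, 398 and 380 in the parental H460 libraries and 1446 in A549 2D cells. KRT5 and KRT14, keratins of basal cells, were at most 0.0535 and 0.0404 in any library. TP63, another airway marker, was at 2.12 in A549 TS and 0.142 in A549 2D cells. In H460 it was at 0.0592 in TS cells and 0.00906, 0.00358 and 0.0170 in parental cells. Epithelial markers were not complete in H460: CDH1 (E-cadherin) was between 0 and 0.0266 and EPCAM between 0 and 0.114 in all 8 H460 libraries. Among 12 alveolar markers, the surfactant gene SFTPB was at 0 in all 10 libraries, and HOPX or ABCA3 was the most abundant.

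AQP3, the aquaglyceroporin of basolateral epithelial membranes, was the aquaporin that set the TS libraries apart. Its FPKM was 70.7 in H460 TS cells, against 0.467, 0.278 and 0.227 in the parental libraries. In A549 it was 102 in TS cells and 1.28 in 2D cells. Both TS libraries therefore lay far above all 8 others, of which the highest was PR replicate 2 with 2.00. The counts behind these levels were 9295 in H460 TS cells, 72, 39 and 41 in parental cells, 15128 in A549 TS cells and 178 in A549 2D cells. Scaled to library size, AQP3 was 207-fold higher in H460 TS than parental cells (95% Clopper-Pearson interval 176 to 245) and 80.3-fold higher in A549 TS than 2D cells (69.3 to 93.7). These intervals, and all below, cover counting error only and take each count as an independent read. How the counts were made is not given. In each of the 10 libraries genes with 2 counts outnumbered those with 1, by 1021 to 729 in A549 2D cells. The values could be coverage estimates rounded to whole numbers, in which case neither the intervals nor the floor of 3 counts used below need hold as counting error.

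On the log2(FPKM + 1) scale, which understates changes of low genes, the difference of AQP3 between TS and 2D cells was 5.76 in H460 and 5.50 in A549. Ranked by this difference among all 46427 genes, AQP3 was number 4 from the top in H460 and number 9 in A549. It was the 1 member more than 2-fold apart in each line. Across all genes, 1.04% were more than 2-fold apart in H460 (0.515% higher in TS cells) and 2.64% in A549 (1.82% higher). AQP3 held 99.0% of the summed FPKM of all 14 aquaporin genes in H460 TS cells and 97.0% in A549 TS cells, against 44.5%, 29.9% and 31.0% in the parental libraries and 53.8% in A549 2D cells.

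**Figure D1:**
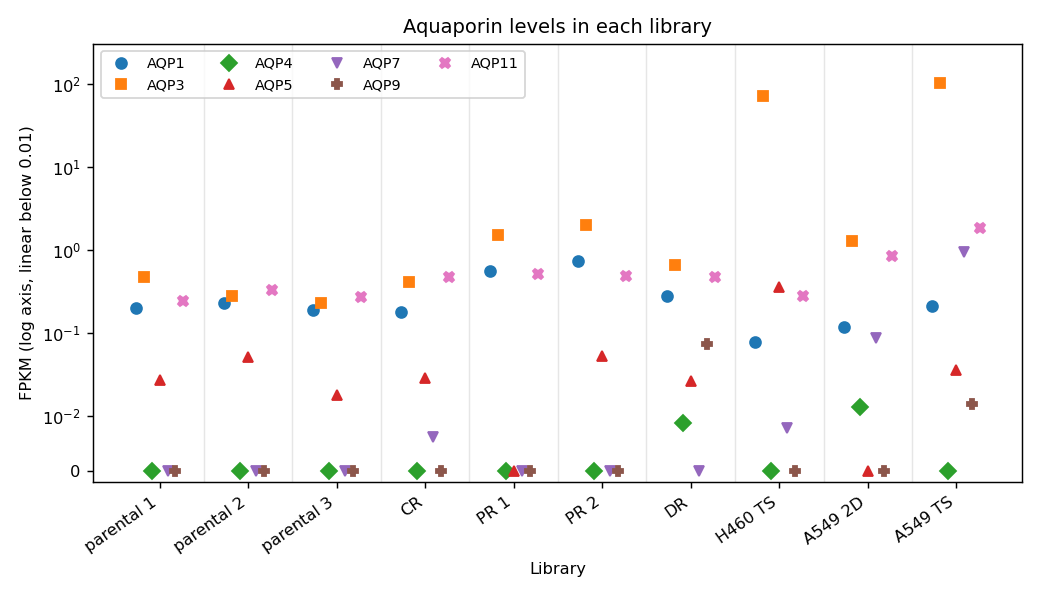
FPKM of the 7 aquaporins (symbols) in each of the 10 libraries, on a log axis that is linear below 0.01, with 1 point per gene and library. AQP3 stands at 70.7 and 102 in the TS libraries, and every other member lies below 2.00, the level of AQP3 in PR replicate 2, in all libraries.

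AQP3 lies on chromosome 9 (GRCh38.p14, chr9:33441160-33447593, minus strand), 38591 bases from the end of AQP7 (chr9:33383191-33402568, minus strand). AQP7 is the glycerol channel of adipocytes. It had counts of 241 in A549 TS cells and 21 in A549 2D cells (FPKM 0.928 and 0.0858), a ratio of 10.8 (6.94 to 17.9). In H460 it had 3 counts in TS cells and 0 in each parental library, too few to give a level. AQP7 was thus higher in TS than 2D cells of A549 and barely detected in H460. It has close pseudogene copies, and reads may be shared with them: AQP7P1 had 4 counts and AQP7P3 had 3 in A549 TS cells. It also overlaps 1 noncoding RNA gene, which had an FPKM of 0 in both A549 libraries, though without strand the reads cannot be told apart.

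The genes around AQP3 were compared in the same way. Of 19 genes of the table within 200 kb on either side, 8 reached an FPKM of 1 in 2 or more libraries, and AQP3 was the 1 gene more than 2-fold apart in both lines. NOL6, its nearest expressed neighbour and a nucleolar protein gene, differed by 0.50 in H460 and -0.42 in A549 (log2(FPKM + 1), TS minus 2D). NFX1, a gene for a transcription factor, differed by 0.14 and -0.12.

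**Figure D2:**
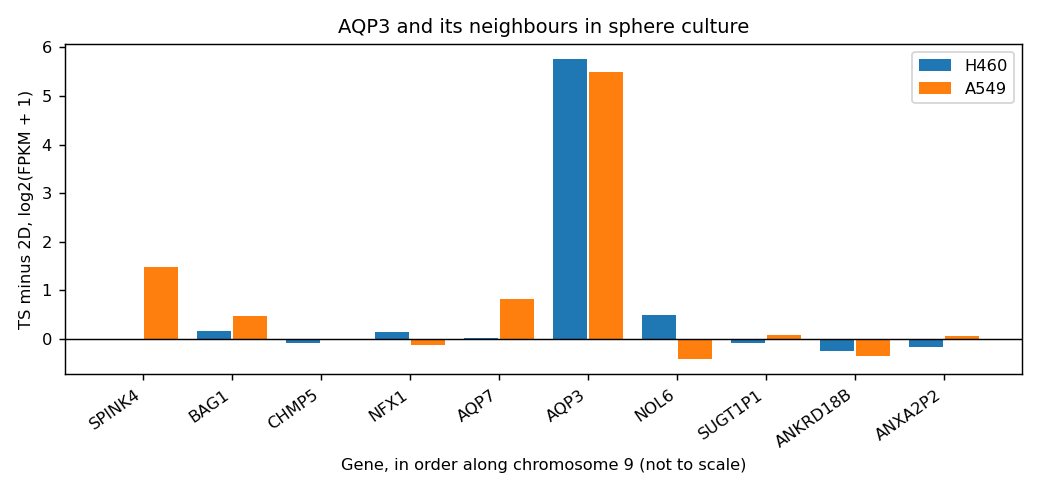
Difference of log2(FPKM + 1) between TS and 2D cells in H460 and A549 for AQP3, AQP7, SPINK4 and the expressed genes within 200 kb, in chromosome order and not to scale. AQP3 reaches 5.76 and 5.50, followed by SPINK4 (1.49) and AQP7 (0.83) in A549 and NOL6 (0.50) in H460.

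The promoters of AQP3 and AQP7, neighbours that differ in level, and of AQP1, which differed with AQP3 in PR cells (below), are shown to compare their start regions. Each run is 250 bases before to 50 bases after the annotated start, from RefSeq on GRCh38.p14, and 6 of the 7 members had an entry. Capitals mark the TATA box TATAAA (read as TTTATA on the opposite strand), the GC box GGGCGG (read as CCGCCC there) and the CCAAT box (read as ATTGG there), with overlapping matches included. They lie at chr9:33447544-33447843 (AQP3, minus strand), chr9:33402519-33402818 (AQP7, minus strand) and chr7:30911603-30911902 (AQP1, plus strand).
AQP3: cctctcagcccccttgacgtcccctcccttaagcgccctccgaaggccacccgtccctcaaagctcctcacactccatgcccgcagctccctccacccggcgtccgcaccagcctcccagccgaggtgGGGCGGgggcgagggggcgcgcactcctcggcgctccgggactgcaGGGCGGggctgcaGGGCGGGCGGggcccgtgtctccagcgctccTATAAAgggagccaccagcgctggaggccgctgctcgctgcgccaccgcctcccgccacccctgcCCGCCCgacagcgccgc
AQP7: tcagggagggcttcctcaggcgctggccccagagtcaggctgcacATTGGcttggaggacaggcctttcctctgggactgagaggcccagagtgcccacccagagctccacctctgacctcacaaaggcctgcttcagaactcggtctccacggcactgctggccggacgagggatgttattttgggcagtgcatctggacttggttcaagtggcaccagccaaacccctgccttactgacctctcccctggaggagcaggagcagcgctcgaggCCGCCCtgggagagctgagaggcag
AQP1: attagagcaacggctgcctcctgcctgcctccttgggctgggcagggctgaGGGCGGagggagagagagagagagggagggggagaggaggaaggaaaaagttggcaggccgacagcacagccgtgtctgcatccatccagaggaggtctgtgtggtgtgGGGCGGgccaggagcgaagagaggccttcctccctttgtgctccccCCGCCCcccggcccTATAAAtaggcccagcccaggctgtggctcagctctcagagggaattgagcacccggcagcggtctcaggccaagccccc
AQP3 and AQP1 each hold 1 TATAAA, at positions -32 and -30 from the start, with 5 and 3 GC boxes, and AQP7 holds none, with 1 GC box and 1 CCAAT. Of 35116 promoters of the same length, 11.5% hold TATAAA, 45.0% a GC box and 34.6% CCAAT on either strand. The share of G and C was 75.3% in AQP3, 62.7% in AQP7 and 65.3% in AQP1, against a median of 58.7%.

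In the TS libraries the water channels were much lower than AQP3, whereas in parental cells AQP1 had an FPKM of 0.197, 0.225 and 0.189 against 0.467, 0.278 and 0.227 of AQP3. AQP5 had 38 counts in H460 TS cells against 4, 6 and 3 in parental cells (FPKM 0.356 against 0.0267, 0.0513 and 0.0176), a ratio of 9.89 (5.15 to 20.2). In A549 it had 5 counts in TS cells and 0 in 2D cells. AQP5 is the salivary, lacrimal and alveolar water channel, and its reads overlap AQP5-AS1 and another annotated gene, so without strand they cannot be told apart from those.

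AQP1, the water channel of red cells and endothelium, had opposite directions in the lines. It had 16 counts in H460 TS cells against 46, 46 and 47 in parental cells, a ratio of 0.389 (0.217 to 0.655). In A549 it had 47 in TS and 23 in 2D cells, a ratio of 1.93 (1.15 to 3.33). AQP11 had 40 counts in H460 TS cells against 39, 48 and 46 in parental cells, a ratio of 1.02 (0.696 to 1.46), and 275 against 122 in A549, a ratio of 2.13 (1.72 to 2.66). Its highest level was that of A549 TS cells.

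AQP4, the water channel of astrocyte end-feet, and AQP9, the glycerol channel of liver, were close to absent. AQP4 had 5 counts in DR cells and 6 in A549 2D cells, and 0 in the other 8 libraries. AQP9 had 22 in DR cells and 4 in A549 TS cells, and 0 in the other 8. AQP4 overlaps AQP4-AS1, which had 0 counts in DR and A549 2D cells and 7 in A549 TS cells. AQP9 overlaps 6 mitochondrial pseudogenes. How reads shared between overlapping genes were counted is not given, so without strand these reads cannot be told apart. The 3 counts that a count of 0 allows correspond to 0.0335 to 0.0504 CPM (counts scaled to library size), depending on the library.

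The other 7 aquaporin genes were MIP, AQP2, AQP6, AQP8, AQP10, AQP12A and AQP12B. AQP12A and AQP12B had 0 counts in all libraries, and none of the 7 exceeded an FPKM of 0.183. MIP, the lens aquaporin, had 0 counts in each parental library and 5 in CR, 9 and 18 in PR and 10 in DR cells, pooled at least 3.05-fold higher against a floor of 3 counts per parental library. AQP6, found in intracellular vesicles of the kidney, had 26, 9 and 7 counts in parental cells, 0 in CR and both PR libraries, and 8 in DR cells. In the TS libraries it had opposite directions in the lines, with 0 counts in H460 TS cells, and 38 in A549 TS against 8 in A549 2D cells, a ratio of 4.49 (2.06 to 11.1). AQP6 overlaps the same unnamed gene as AQP5, and AQP2 overlaps AQP5-AS1, with the same limit.

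Drug-resistant H460 cells were compared with parental cells to ask what the surviving cells share. The controls are the same 3 parental libraries whose 2D values were known when the members were chosen, so the tests below are not independent of that choice. AQP3 had FPKM of 0.408 in CR, 1.51 and 2.00 in PR and 0.659 in DR cells, against 0.467, 0.278 and 0.227 in parental cells. The CR library lay within the parental range, DR above it and both PR libraries highest. AQP1 had FPKM of 0.545 and 0.737 in PR, 0.276 in DR and 0.175 in CR cells, against 0.197, 0.225 and 0.189 in parental cells. AQP1 was thus above every parental library in PR and DR cells and below them in CR cells. AQP11 had FPKM of 0.468 in CR, 0.508 and 0.483 in PR and 0.471 in DR cells, above the parental 0.240, 0.328 and 0.268 in 4 of 4 libraries.

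With 4 drug-resistant against 3 parental libraries, 3 of the 7 members passed the filter on low counts (AQP1, AQP3 and AQP11) and 1 passed the test. AQP3 rose by a log2 fold change of 1.62 (standard error 0.52, edgeR adjusted p = 0.0351), where 33.8% of the 18398 genes tested passed (18.5% higher). AQP1 had 0.93 (standard error 0.46, edgeR adjusted p = 0.146) and AQP11 0.69 (0.33, edgeR adjusted p = 0.131). The call of AQP3 was lost without the PR libraries, an alternative chosen after seeing the data, with a fold change of 0.65 (edgeR adjusted p = 0.350). It was also lost without parental replicate 1 (adjusted p = 0.0506), 2 (0.118) or 3 (0.106) without PR replicate 1 (0.0788) or 2 (0.0991), and by limma with a pseudocount of 1 (0.0628) or 0.1 (0.0512). Over its 15 alternatives the adjusted p of AQP3 ranged from 0.00564 to 0.350. Library names have 2 forms, which hold 1 drug-resistant against 2 parental and 3 against 1 libraries. Within them the AQP3 fold change was 1.86 (adjusted p = 0.344) and 1.71 (adjusted p = 0.252) by edgeR, the lone library being assumed to vary like the others, so neither p says whether the form of the name matters.

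In PR cells alone, 2 against 3 libraries, AQP1 and AQP3 were both higher. AQP3 rose by 2.16 (standard error 0.42, edgeR adjusted p = 0.00677) and AQP1 by 1.40 (standard error 0.40, edgeR adjusted p = 0.0286), each higher in 2 of 2 PR libraries than in every parental library, while AQP11 had 0.63 (edgeR adjusted p = 0.291). So 2 of 3 members tested passed, where 28.1% of 19430 genes did (17.5% higher). AQP3 lost its call without PR replicate 2 (edgeR adjusted p = 0.0883), and its 11 alternatives ranged from 2.42e-05 to 0.0883. AQP1 lost its call without PR replicate 1 (0.107), PR replicate 2 (0.264) or parental replicate 2 (0.0722) and with a replicate block (0.0549), and its 9 alternatives ranged from 0.0097 to 0.264. Among the other aquaporins, AQP6 passed the filter through the parental libraries alone, so no test of it is given. The PR libraries also held more genes with an FPKM above 0, with 25777 and 26132, as did DR with 26740. CR held 22718 and the parental libraries 21033, 21130 and 21602. The part of this difference in the AQP1 and AQP3 results was not tested.

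Markers of other cell types also differed between the H460 groups. The 4 leukocyte markers summed to an FPKM of 57.9 in CR, 30.9 and 44.6 in PR and 47.0 in DR cells, against 15.1, 16.8 and 16.9 in parental cells. CD68 made up nearly all of each sum, with 57.9 in CR, 30.7 and 44.2 in PR and 46.5 in DR cells, and 15.0, 16.7 and 16.9 in parental cells. LYZ was at most 0.281 and PTPRC at most 0.157 in these 7 libraries. CD3E was at 0 in all but DR cells (0.0582) and PTPRC at 0 in the parental libraries. The 5 fibroblast markers summed to 40.6 in CR, 48.8 and 52.1 in PR and 37.3 in DR cells, against 20.6, 30.1 and 41.0 in parental cells, with ACTA2 most abundant in the drug-resistant and COL3A1 in the parental libraries. COL3A1 itself was lower, with 2.50 in CR, 7.22 and 5.37 in PR and 4.29 in DR cells, against 13.7, 21.3 and 26.5 in parental cells. COL1A2 was at 0 in CR and parental cells, and COL1A1 had 6.51 and 6.26 in PR cells against at most 0.193 in parental cells. The 3 endothelial markers summed to 0.0156 in CR, 0.0675 and 0.0901 in PR and 0.139 in DR cells. In parental cells these sums were 0.0110, 0.0045 and 0.0092. The part of these marker genes in the AQP1 and AQP3 results was not tested.

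Whether PR differed from CR and DR cells was then asked directly, a comparison added after these values were seen. AQP3 had a log2 fold change of 1.53 (standard error 0.44, edgeR unadjusted p = 0.00631, adjusted p = 0.211). AQP1 had 1.31 (standard error 0.41, edgeR unadjusted p = 0.0104, adjusted p = 0.239), so neither passed. Of 19770 genes edgeR called 0 (0%), against 2479 at an unadjusted p under 0.05. DESeq2, fitted without the filter on low counts, called 350 genes. A higher level in PR than in CR and DR cells was therefore not shown by the edgeR test.

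**Figure D3:**
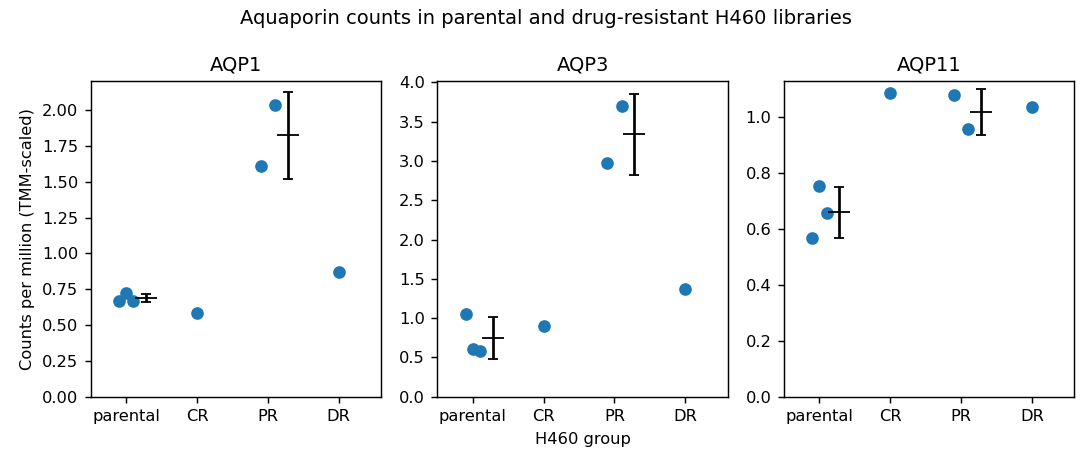
CPM, scaled by TMM, of AQP1, AQP3 and AQP11 in parental, CR, PR and DR H460 libraries, with 1 point per library and mean ± SD where a group has more than 1. PR libraries are highest for AQP1 and AQP3, and all 4 drug-resistant libraries lie above the parental ones for AQP11.

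Genes that act with aquaporins were described from lists. Glycerol handling genes showed mixed directions in drug-resistant cells, with 3 of 13 tested higher and 3 lower, where 18.5% of all genes were higher and 15.3% lower (median log2 fold change 0.13, against 0.06 over all genes). MGLL, which releases glycerol from monoacylglycerol, rose by 1.85 (standard error 0.35, edgeR adjusted p = 0.00321), and GPD2, the mitochondrial glycerol phosphate dehydrogenase, fell by 1.63 (0.24, edgeR adjusted p = 0.000858). GK, the kinase that traps glycerol entering the cell, fell by 1.17 (0.25, edgeR adjusted p = 0.00578). In PR cells 2 of 13 were higher and 3 lower (median 0.01), where 17.5% of all genes were higher and 10.6% lower.

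Cell volume and osmolyte genes had 4 of 18 higher and 3 lower in drug-resistant cells (median 0.19), against 18.5% and 15.3% of all genes, and 3 of 18 higher and 2 lower in PR cells, against 17.5% and 10.6%. SLC6A12, the betaine carrier, had 0 counts in each parental library and was at least 26.6-fold higher when the 4 drug-resistant libraries were pooled. Its level differed among them, with FPKM of 0.0413 in CR, 0.496 and 0.477 in PR and 0.212 in DR cells. Leaving SLC6A12 out, 3 of 17 were higher in drug-resistant and 2 of 17 in PR cells. AKR1B1, which makes sorbitol, rose by 1.06 (standard error 0.33, edgeR adjusted p = 0.0307), and SLC12A2, the sodium-potassium-chloride cotransporter, fell by 1.22 (0.29, edgeR adjusted p = 0.00935). AKR1B1 had an FPKM of 203 in CR cells, within the parental 162 to 240. Its call was lost in 8 of 15 alternatives (edgeR adjusted p from 0.0597 to 0.289), among them each parental or PR library left out in turn, and without the PR libraries its fold change was 0.50. SLC12A2 lost its call in 3 of 15, among them without the PR libraries (edgeR adjusted p = 0.0684). Hydrogen peroxide genes, beside the same shares, had 3 of 12 higher and 4 lower (median 0.22), and 5 of 15 higher and 4 lower in PR cells (median 0.01). The higher genes in PR cells included SOD3 (FPKM 0.392 and 0.5485), DUOX2 (0.0594 and 0.0584) and NOX1 (0.0825 and 0.1285). In the parental libraries these were at most 0.0189, 0.0112 and 0.0162. They may have passed the filter through the PR libraries alone, so nothing is read from the 5 of 15. In drug-resistant cells SOD2, a mitochondrial enzyme that makes hydrogen peroxide from superoxide, rose by 1.54 (0.43, edgeR adjusted p = 0.0194). PRDX3, which removes hydrogen peroxide, fell by 1.07 (0.21, edgeR adjusted p = 0.00395). GPX1, which also removes it, rose by 1.04 (0.31, edgeR adjusted p = 0.027). The call of SOD2 was lost in 5 of 15 alternatives, among them without parental replicate 2 (edgeR adjusted p = 0.0739) or 3 (0.0772), and without the PR libraries its fold change was 0.75. GPX1 lost its call in 6 of 15, among them without parental replicate 2 or 3, PR replicate 2, CR or DR (edgeR adjusted p from 0.0516 to 0.0986), and PRDX3 in 1 of 15.

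Epithelial salt transport genes had 1 of 8 higher and 0 lower in drug-resistant and in PR cells, leaving out CFTR, which passed the filter through the drug-resistant libraries alone. Their median log2 fold changes were 1.08 and 0.95, against 0.05 and 0.02 over all genes without those at 0 in one group. With CFTR, 6 of 9 had an unadjusted p under 0.05 by edgeR in drug-resistant cells. Of all 18398 genes tested there, 18.5% were higher and 15.3% lower, and 8295 had an unadjusted p under 0.05. DESeq2, fitted without the filter on low counts, called 5 genes of the list and 7415 of all genes, which are not shares of the 9 and 18398. ATP1B1, a sodium pump subunit, rose by 1.25 (standard error 0.18, edgeR adjusted p = 0.000905), and CFTR, at 0 in the parental libraries, was at least 3.99-fold higher when the drug-resistant libraries were pooled. The FPKM of CFTR was 0 in CR, 0.0205 and 0.0325 in PR and 0.0486 in DR cells. No test of it is given. Of the genes induced by glucocorticoids, 3 of 9 were higher and 1 lower, in PR cells too, where 17.5% of all genes were higher and 10.6% lower. The medians of this list were 0.40 in drug-resistant and 0.47 in PR cells. FKBP5 fell by 2.65 (0.27, edgeR adjusted p = 0.000239) while SGK1 rose by 0.90 (0.21, edgeR adjusted p = 0.00939). Of those induced by retinoids, 5 of 6 were higher, where 18.5% of all genes were (median 1.59, also with PLAAT4 at its bound of 5.45-fold) and 4 of 7 in PR cells. Without PLAAT4, which passed the filter through the drug-resistant libraries alone, 4 of 5 were higher (median 1.45) and 3 of 6 in PR cells, where 17.4% and 14.9% of genes were higher once those at 0 in one group were left out. TGM2, still among them, had FPKM of 0.0835 in CR, 0.596 and 0.476 in PR and 0.233 in DR cells. In parental cells it had 0.131, 0.0260 and 0.0200. It may have passed the filter mainly through the drug-resistant libraries, so nothing is read from these shares. STRA6, a retinol receptor, rose by 1.73 in drug-resistant cells (0.51, edgeR adjusted p = 0.0255) and by 2.17 in PR cells (0.47, edgeR adjusted p = 0.00998, lost without PR replicate 1 or 2, at 0.0807 and 0.0675). In drug-resistant cells the call was lost in 8 of 15 alternatives for STRA6, 9 of 15 for DHRS3 and 8 of 13 for TGM2. Each of the 3 lost it with either PR replicate or parental replicate 2 left out (edgeR adjusted p from 0.0610 to 0.143), DHRS3 and STRA6 also without parental replicate 1, TGM2 without parental replicate 3 and DHRS3 without CR. Without the PR libraries their fold changes were 1.02, 0.93 and 1.21, none called.

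The same lists were followed in sphere culture. With cell line as a covariate, edgeR called 35 of 18372 genes (0.191%) and 0 genes of these 6 lists. At an unadjusted p under 0.05 by edgeR the lists held 1 of 14 glycerol, 3 of 18 cell volume, 2 of 13 hydrogen peroxide, 4 of 11 salt transport, 2 of 9 glucocorticoid and 5 of 8 retinoid genes. Over all genes, 1363 of 18372 were under that unadjusted p. DESeq2, fitted without the filter on low counts, called 0, 1, 2, 2, 1 and 2 genes of these lists in the same order. Among all genes it called 521, so its counts are not shares of the genes tested by edgeR. By size alone, SLC12A2 had an FPKM of 97.0 in A549 TS and 7.58 in A549 2D cells, and 57.0 in H460 TS against 21.9, 36.4 and 44.9 in parental cells. AKR1B1 had 353 in A549 TS and 755 in A549 2D cells, and 138 in H460 TS against 240, 181 and 162 in parental cells. DHRS3, a retinal reductase, had 23.4 in H460 TS cells against 3.89, 11.1 and 12.1 in parental cells and 41.2 against 19.4 in A549. More than 2-fold higher in A549 TS cells were 5 of 8 retinoid, 3 of 12 salt transport, 2 of 10 glucocorticoid, 2 of 19 hydrogen peroxide, 1 of 19 cell volume and 0 of 14 glycerol genes, and lower were 2 glucocorticoid, 1 cell volume and 1 glycerol gene, where 845 of 24422 genes with a value were higher and 381 lower. In H460 TS cells 2 retinoid, 2 hydrogen peroxide and 1 glucocorticoid gene were higher and 0 of these lists lower, where 239 of 24852 were higher and 244 lower. Retinoid genes had a median difference of 1.49 in A549 and 0.23 in H460, and salt transport genes 0.64 and 0.17.

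**Figure D4:**
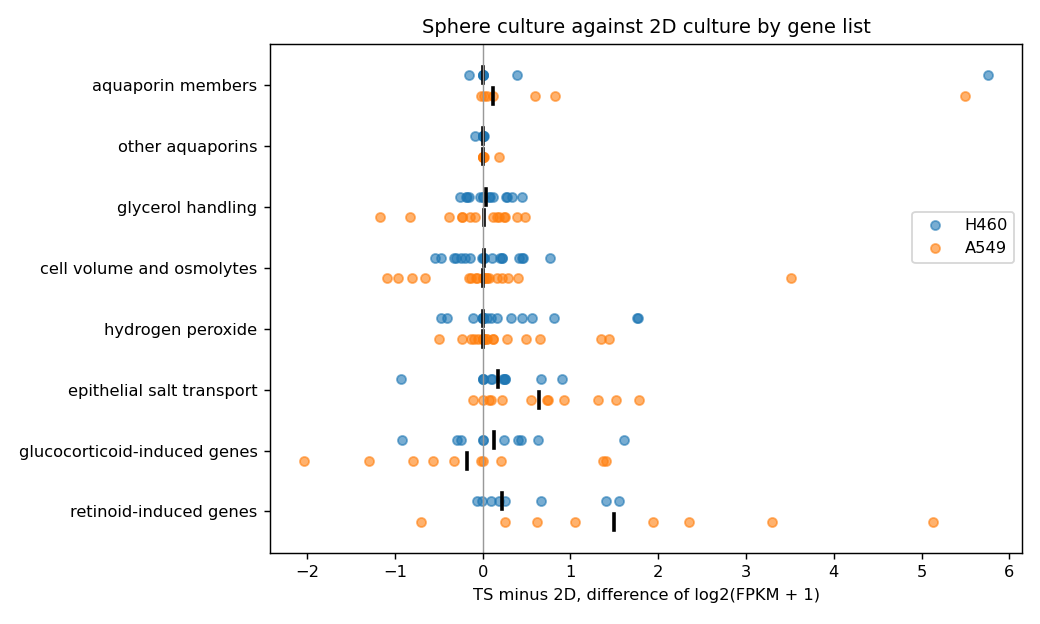
Difference of log2(FPKM + 1) between TS and 2D cells for each gene of the 8 lists, in H460 and A549, with 1 point per gene and a black bar at the median. AQP3 is the point at 5.76 and 5.50, and the glycerol medians are 0.03 and 0.02.

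Markers of other cell types moved in the A549 TS library beside AQP3. The 7 airway markers summed to an FPKM of 269 in A549 TS and 24.9 in A549 2D cells, with MUC5AC most abundant (173), and to 0.129 in H460 TS cells, where AQP3 was also high. The 4 leukocyte markers summed to 108 and 19.6 in A549 TS and 2D cells, CD68 being the most abundant, with CD3E at 0 in both. LYZ, the lysozyme gene, had 37.8 in A549 TS cells and 0 in A549 2D cells. In H460 TS cells they summed to 21.3, with PTPRC and CD3E at 0, against 15.1, 16.8 and 16.9 in parental cells. Endothelial markers, known for AQP1, summed to at most 0.182 in any library. Fibroblast markers summed to 14.4 in A549 TS and 11.5 in A549 2D cells, and to 10.1 in H460 TS against 20.6, 30.1 and 41.0 in parental cells, with COL1A2 at 0 in all 6. The 5 epithelial markers summed to 7177 in A549 TS against 2801 in 2D cells, and to 902 in H460 TS against 985 to 1139 in parental cells. The part of these genes in the A549 result was not tested.

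The genes whose levels over the 10 libraries were most like those of AQP3 were FGD4 (Pearson r = 0.99), TC2N (0.97), SPRY1 (0.96), MAPK4 (0.96) and SNAI3-AS1 (0.96), among 13438 genes compared. This is a description over 10 libraries that share lines and culture, and it rests on the 2 TS libraries. TC2N had an FPKM of 25.1 in H460 TS and 11.3 in A549 TS cells and at most 0.145 elsewhere. SPRY1, an inhibitor of growth factor signalling, had 2.22 and 3.38, against at most 0.833 elsewhere.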

How the data were processed

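Poly(A) RNA of 10 libraries was analysed from the table of 46427 genes. Per the submitters' processing notes, bcl2fastq 1.8.4, Trimmomatic, HISAT2 2.1.0, StringTie 2.1.3b and GRCh38 were used. The deposited counts are whole numbers for each gene, and how reads shared between genes or strands were counted is not given in the sources used here. The FPKM values are the authors' own, scaled for length and depth. The 10 deposited TPM columns were not used. Counts were compared with the quasi-likelihood test of edgeR 4.0.16 in R 4.3.3 (TMM, filterByExpr, Benjamini-Hochberg, threshold 0.05), tested on simulated data. Alternatives were RLE, no filter, DESeq2 1.42.0, limma 3.58.1 on log2(FPKM + 1) or + 0.1, each replicate left out, a replicate block and each form of library name. Without replicates, a 2-fold difference of log2(FPKM + 1) was counted. Named are the 14 aquaporin genes, up to 4 called genes per list (otherwise the 2 most abundant), of which examples are given, and the 5 genes most like a member. SPINK4, NOL6, NFX1 and AQP7 copies were named after their values were seen. The members and lists were chosen with earlier results of these data known. The result of 1 marker list is not reported here. Python 3.11.15, numpy 2.4.6, pandas 2.3.3, scipy 1.17.1 and matplotlib 3.10.9 were used.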

Additional observations from a re-analysis of the deposited data

Results flagged for a closer look

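In 3 of the 7 member values looked at over the 4 drug-resistant libraries, 1 library lay far from the other 3: AQP4 in DR cells (FPKM 0.00862), AQP9 in DR cells (0.0737) and AQP7 in CR cells (0.0062), each with 0 in the other 3. With 3 libraries at 0 any level above 0 lies this far apart, so the rate of about 1 in 20 groups that chance gives does not apply, and these levels rest on 5, 22 and 2 counts. AQP1 moved in opposite directions in the lines: its log2(FPKM + 1) difference between TS and 2D cells was -0.16 in H460, below each of the 3 parental libraries, and 0.12 in A549. The difference between the lines was not tested.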

How the results depend on the processing

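Between drug-resistant and parental cells, 6220 genes were called, against 0 within one form of library name (1 drug-resistant against 2 parental libraries, 2726 at an unadjusted p under 0.05 by edgeR), 3193 within the other (3 against 1) and 3355 without the PR libraries (added after seeing the data). Leaving out a replicate gave 4215 to 6585. For PR cells, 5455 genes were called, against 3026 and 2773 by limma with a pseudocount of 1 and 0.1, and 950 to 6661 with a replicate left out. A replicate block gave 6098 genes. The labels do not say that numbers mark a batch, and the replicate differences of PR and parental cells had a correlation of 0.156 across 12496 genes. Between TS and 2D cells of both lines, 35 genes were called, against 521 by DESeq2, 19 by limma with 0.1 and 6 to 35 with a parental replicate left out. PR against CR and DR cells, itself added after seeing the data, gave 0 genes, against 509 without a filter, 350 by DESeq2, 101 and 15 by limma and 0 to 66 with a replicate left out. With a pseudocount of 0.1, 1776 genes in H460 and 3430 in A549 were more than 2-fold apart, against 483 and 1226. Of 763 alternatives over 71 single-gene fold changes, 621 kept direction and call (or value, where untested), 134 lost the call, 7 untested values moved (6 of AQP7, from 3.65 to 3.75 against 3.71, whose parental libraries are all at 0 and have no spread, and AQP3 by limma with a pseudocount of 1, 5.66 against 7.20), and GPAT3 in TS cells changed sign (-0.09 to 0.14 with a parental replicate left out). The causes were not tested. Leaving out a PR replicate, or keeping one form of library name, leaves a group of 1 library, assumed to vary like the others, and nothing is read about the form of the name. Most members had too few counts to be tested.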
